A study of Taeniopygia guttata with 169 samples.

Results

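Bone marrow of adult zebra finches, sampled at day 90, was compared between birds labelled Hg, which received food with methylmercury (MeHg) at 1.2 ppm, and birds labelled C, taken here as controls. RNA was sequenced from whole marrow. The libraries were those labelled day 90 and C or Hg, of either sex and either cohort: 19 control and 21 MeHg libraries, 40 in all, out of the 78 control and 83 MeHg libraries in the deposited table. Controls were 8 females and 11 males, 11 of cohort 1 and 8 of cohort 2. MeHg birds were 7 females and 14 males, 8 of cohort 1 and 13 of cohort 2. The series states that its finches were bred from stock with differing past exposure, and the labels do not say which bird came from which. Each bird's title carries a code, such as Hg17, whose meaning is not given. The labels do not say in words that libraries came from separate birds, so p-values rest on the spread between libraries.

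Methylmercury is an organic form of mercury that binds sulfur and selenium groups of proteins and of small molecules such as glutathione, and that collects in animals high in the food chain. Bird marrow forms nucleated red cells, thrombocytes and white cells such as heterophils, and it also holds bone, fat and vessel cells. In whole marrow, fewer cells of a type and less RNA per cell cannot be told apart. The table gives Ensembl identifiers without gene names, and the RefSeq table used here paired 0 of 17292 with a symbol. Marrow markers could therefore not be checked, no role can be given for any gene, and 4 leading genes are described by identifier.

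A further 3 day 90 libraries, all of females of cohort 2, stood apart and were left out: MeHg replicate 7 and control replicates 15 and 16. On the first 2 principal components, MeHg replicate 7 lay farthest from the median of its treatment and sex, control replicates 15 and 16 followed at 111.4 and 97.72 units, and the next library lay at 62.6 units. Assigned reads in the 40 libraries ranged from 4724894 to 14734247, with a median of 7824080. Between treatments, total reads, RNA integrity (RIN, labelled for 31 libraries), the percentage held by the 3 most abundant genes and the number of genes with a read gave adjusted p of 0.214 to 0.725 in 4 two-sided permutation tests (100000 resamples). The lowest was for the 3 most abundant genes (unadjusted permutation p = 0.0534). These genes held 18.3% ± 6.52 (SD, n = 19) of normalised reads in controls and 14.6% ± 5.25 (SD, n = 21) with MeHg. The first principal component held 12.5% of the variance. Treatment accounted for 3.89% of this component, sex for 18.7%, plate for 32.3% and extraction batch, with 18 batches, for 56.9%. Of the second component, treatment accounted for 10.1%, sex for 17.1%, plate for 46.1% and extraction batch for 57.5%. A label with more levels takes a larger share by chance alone. Plate had 9 levels and extraction batch 18, far more than treatment and sex, so these shares cannot be compared directly.

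Adult marrow differed between MeHg and control birds in few single genes once all 13355 tested genes were accounted for. Expression of 2 genes fell with MeHg, ENSTGUG00000001164 by 1.88-fold and ENSTGUG00000004612 to almost no reads. No gene rose past the threshold. Both calls rest on the model: neither gene passed with a random effect of title code (limma, adjusted p = 0.0684 and 0.0723) or with extraction batch in place of plate (limma, adjusted p = 0.151 and 0.129). No gene passed in 10 of the 40 fits that each left out 1 library, among them 2 fits with the same estimates. These 2 genes make up 0.015% of the genes tested (limma on log2 of the normalised read count plus 1, with sex, cohort and plate as covariates, Benjamini-Hochberg adjusted p under 0.05). The next 4 genes shared an adjusted p of 0.0569, among them the 2 leading genes on the higher side, ENSTGUG00000020696 and ENSTGUG00000025388. A total of 29 genes (0.217% of those tested) lay under a limma adjusted p of 0.1, 14 higher and 15 lower with MeHg. The 4 named genes are those with the smallest p in each direction.

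**Figure D1:**
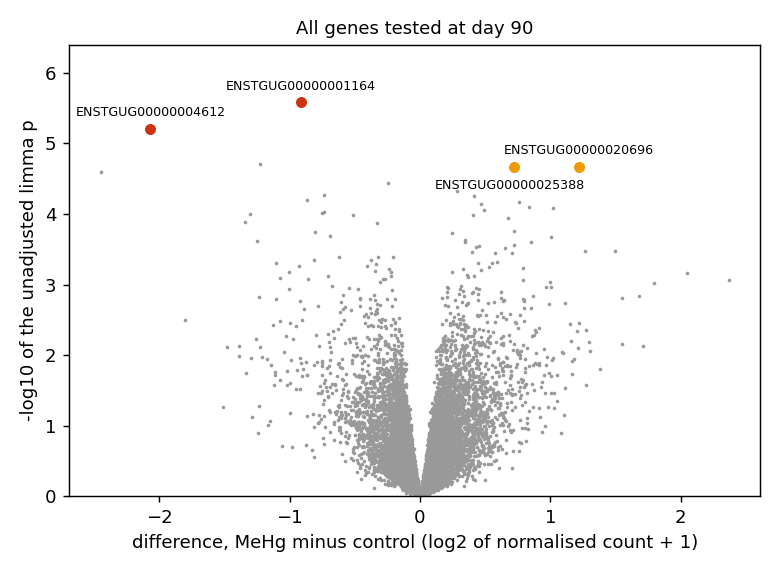
Each point is 1 of 13355 genes, with the fitted MeHg minus control difference on the x axis (log2 of normalised count + 1) and -log10 of the unadjusted limma p on the y axis. The 2 red points passed an adjusted p of 0.05, both lower with MeHg, and the 2 orange points, higher with MeHg, had an adjusted p of 0.0569.

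Before adjustment, 1484 genes had a p under 0.05, which is 11.1% of those tested, 847 of them higher (6.34%) and 637 lower (4.77%) with MeHg. The differences were small. Their median absolute size over all tested genes was 0.10 on the log2 scale, beside a median standard error of 0.12. A difference of at least 1, a doubling or more on this scale, was fitted for 80 genes, 40 in each direction (0.3% each), and 60 of the 80 lay among the weakest of 3 equal bins of genes by mean value. The share of genes with an unadjusted p under 0.05 was 10.8%, 11.3% and 11.3% in the weakest, middle and strongest bin. Data were also simulated from these libraries, with 50 changed genes at each size of change. There limma recovered 28% of genes changed 1.25-fold, 60% at 1.5-fold, 92% at 2-fold and 96% at 4-fold. Many more genes passed there than in the real birds, and the adjusted threshold is easier to reach when more genes pass. In the real fit ENSTGUG00000020696, at 2.33-fold, did not pass (limma, adjusted p = 0.0569). These percentages therefore do not give the share of real changes that would be called.

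ENSTGUG00000001164 had 63.7 to 163.8 normalised reads in controls, with a median of 78.2, and 15.1 to 99.1 in MeHg birds, with a median of 38.1. Of 21 MeHg birds, 14 lay below the lowest control and 18 below the control median, while the other 7 overlapped the controls. The means were 88.7 ± 27.4 (SD, n = 19) and 47.8 ± 24.9 (SD, n = 21). The fitted difference was -0.91 ± 0.16 (SE) on the log2 scale, a 1.88-fold lower level (limma, adjusted p = 0.0351), with a 95% interval of -1.24 to -0.58. MeHg medians lay below control medians in both sexes, though neither sex passed the test alone. The 4 genes were named from the birds of both sexes together, so their values by sex are a description. Female medians were 79.9 in 8 controls and 38.1 in 7 MeHg birds, and all 7 MeHg females lay below the median of control females. Male medians were 78.2 and 37.1, with 11 of 14 MeHg males below the median of control males. Counted against the lowest control of the same cohort, 72.05 normalised reads in cohort 1 and 63.7 in cohort 2, 4 of 8 MeHg birds of cohort 1 and 11 of 13 of cohort 2 lay below.

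ENSTGUG00000004612 was weakly expressed. Controls had 0.623 to 46.3 normalised reads with a median of 11.0, which rest on 1 to 47 reads per library. MeHg birds had 0 to 6.62 with a median of 1.19, from 0 to 8 reads. All 21 MeHg birds lay below the control median, 20 of them under 5 normalised reads and 7 at 0 reads, and the lower controls overlapped them, with 6 of 19 under 5. The fitted difference was -2.07 ± 0.38 (SE) on the log2 scale (limma, adjusted p = 0.0412). This size depends on the pseudocount and was -2.48 with 0.5 and -1.11 with 5 in place of 1. The gene entered the test through controls alone, since 10 controls and 0 MeHg birds reached the level of 10 normalised reads that a gene needed in 10 libraries. With no filter, where the gene did not need those controls to be tested, the difference was the same and the adjusted p was 0.0310 (limma). In females the medians were 14.7 and 2.17, and in males 6.30 and 1.07.

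ENSTGUG00000020696 did not pass the main limma test, though it passed with edgeR, DESeq2 and voom. Its MeHg birds were unevenly spread. Controls had 26.8 to 155.6 normalised reads, with a median of 76.7. MeHg birds had 50.1 to 439, with a median of 218. In MeHg birds the values fell into a lower and an upper group with a gap between 113.8 and 165.6: 14 of 21 birds lay above the highest control, and the other 7 lay within the control range. The SD was 27.1 in controls and 114.1 in MeHg birds. The fitted difference was 1.22 ± 0.25 (SE) on the log2 scale, or 2.33-fold (limma, adjusted p = 0.0569), with a 95% interval of 0.72 to 1.72. Birds above the highest control were 4 of 7 MeHg females, 10 of 14 MeHg males, 4 of 8 in cohort 1 and 10 of 13 in cohort 2, where each is counted against the controls of its own sex or cohort.

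ENSTGUG00000025388 was more evenly shifted. Controls had 89.6 to 364 normalised reads with a median of 172.1, and MeHg birds 140 to 567 with a median of 287. The groups overlapped widely, with 6 of 21 MeHg birds above the highest control, yet 19 of 21 lay above the control median. The fitted difference was 0.72 ± 0.15 (SE) on the log2 scale, or 1.65-fold (limma, adjusted p = 0.0569), with a 95% interval of 0.42 to 1.02.

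**Figure D2:**
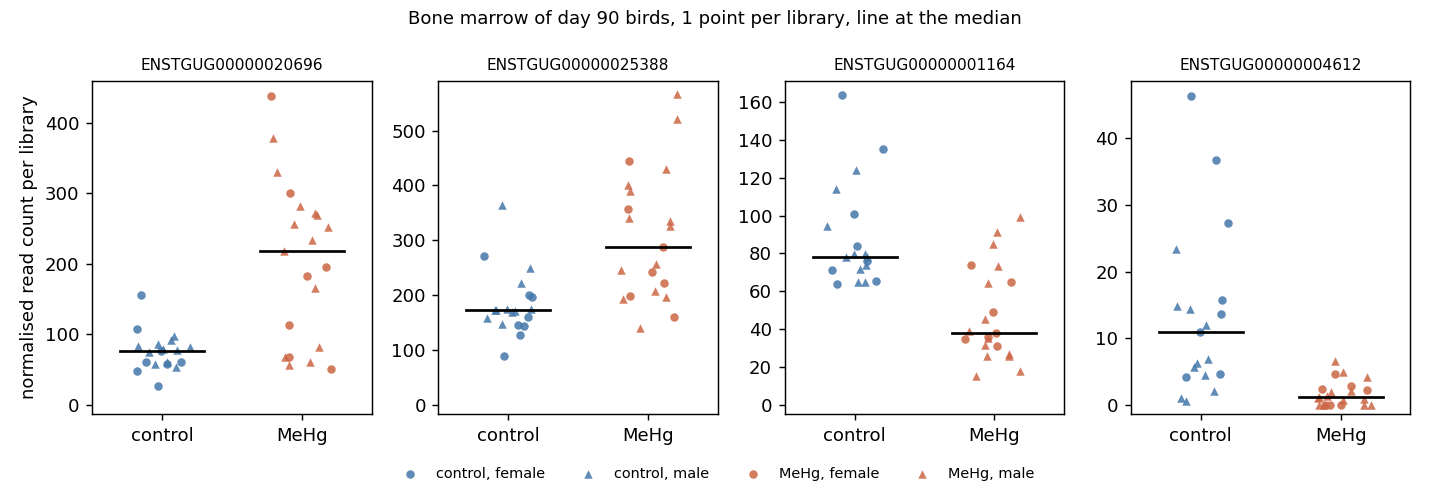
Normalised read count (y axis) of the 4 genes in each of 19 control and 21 MeHg libraries of day 90, with circles for females, triangles for males and a line at each group's median. ENSTGUG00000020696 shows a lower and an upper set of MeHg birds at this age, a split that was not tested, with 14 of 21 above the highest control. ENSTGUG00000004612 lies under 7 normalised reads in all MeHg birds.

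The left-out libraries were like their treatment groups in some of these genes. ENSTGUG00000004612 had 0 normalised reads in MeHg replicate 7 and 13.9 and 4.37 in control replicates 15 and 16, and ENSTGUG00000001164 had 58.05 against 89.3 and 198. ENSTGUG00000025388 was lower in all of them than in any of the 40 birds, with 44.2 in the MeHg library and 13.9 and 37.9 in the controls. ENSTGUG00000020696 had 91.2 in the MeHg library, within the range of the controls analysed, and 69.3 and 81.55 in the left-out controls. With the 3 libraries kept, 4 genes were called (0.0298% of genes tested), 1 higher and 3 lower. ENSTGUG00000020696 then passed (log2 difference 1.17, limma adjusted p = 0.0463), and both genes that fell passed too. ENSTGUG00000025388 did not (log2 difference 0.88, limma adjusted p = 0.165).

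The calls depended on how the birds were modelled. Title code accounted for 82.2% of the variance of ENSTGUG00000001164, 69% of that of ENSTGUG00000020696, 66.7% of that of ENSTGUG00000025388 and 61.3% of that of ENSTGUG00000004612. Code takes 23 of 39 degrees of freedom, or 59%. Each code belongs to 1 treatment, so these shares contain those of treatment, which were 42.3%, 37.5%, 33.4% and 46.8% in the same order. When a random effect for title code, taken within cohort, was added, no gene passed (limma). The log2 differences of ENSTGUG00000001164 and ENSTGUG00000004612 were then -0.90 and -2.05. With RNA extraction batch in place of plate none passed either, at -0.87 and -1.78. On recovered reads, edgeR called 14 genes (6 higher and 8 lower, 0.105%) and voom with quality weights 73 (38 higher and 35 lower, 0.547%). DESeq2 called 63 higher and 49 lower genes (0.839% in all). The 14 genes of edgeR were shared by all of these tools, and both genes called by limma were among them. So were ENSTGUG00000020696 and ENSTGUG00000025388 (edgeR, adjusted p = 0.0301 and 0.0403). Smaller changes to the limma fit gave 0.0449% of genes with a pseudocount of 5, 0.0116% (the same number of genes, out of more) with no filter, 0.00983% with a filter on a mean of 50, 0.0225% with no covariates and 0.128% with all ages in 1 fit. When each library was left out in turn, the limma count ranged from 0 to 20.

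**Figure D3:**
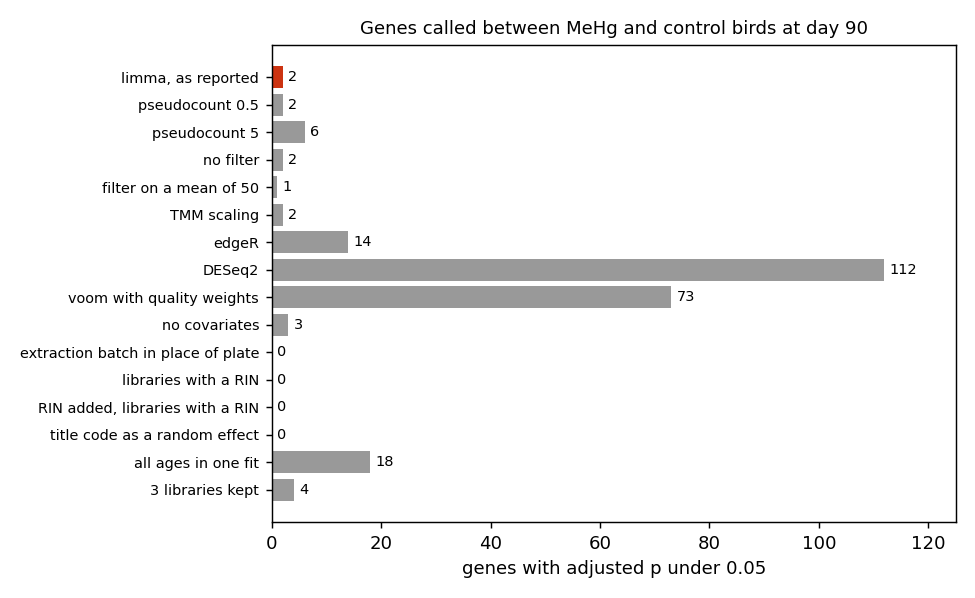
Bars give the number of genes with an adjusted p under 0.05 (x axis, starting at 0) for MeHg against control at day 90 under each setting. Counts run from 0, with title code or extraction batch in the fit or on the libraries with a RIN, to 63 higher and 49 lower genes with DESeq2, against 2 as reported.

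Males and females were next compared for their response. No gene passed the test of MeHg by sex (limma, 488 genes or 3.65% with an unadjusted p under 0.05, every adjusted p above 0.99; edgeR also 0). In males alone 1 gene passed (limma, 0.00749%), with 596 genes or 4.46% at an unadjusted p under 0.05, and in females alone 0 did (limma, 882 genes or 6.6% at an unadjusted p under 0.05; edgeR also 0). The female fit had 5 residual degrees of freedom, against 14 in males. Only plates G, I and K held females of both treatments. With plate as a covariate, only those plates compare females of both treatments directly. Plate F, which held control females of both cohorts, also enters the female differences through the cohort term. The male gene was ENSTGUG00000025340, chosen after its value was seen, with 3.94 to 41.7 normalised reads and a median of 21.1 in control males and 1.27 to 25.5 with a median of 8.95 in MeHg males. It fell in males by 2.05 ± 0.30 (SE) on the log2 scale (limma, adjusted p = 0.0277). That fit had plate as a covariate, and only plates A, C, G, I and J held males of both treatments. The fitted fall is larger than the male medians show. In all 40 birds the difference of ENSTGUG00000025340 was -1.23 ± 0.25 (SE; limma, adjusted p = 0.0569). The female difference was -1.31 ± 0.52 (SE, limma adjusted p = 0.732), and the test of the sex difference gave an unadjusted p of 0.198 (limma, adjusted p above 0.99). The difference in all birds was smaller than that of either sex alone. Across 13355 genes, which are not independent replicates, the male and female differences had a correlation of 0.24 and the same sign in 58.2% of genes. The sexes shared no bird but shared plates.

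For ENSTGUG00000020696 the female fit departed from the medians of all females. The medians were 60.7 in 8 control and 183 in 7 MeHg females, while the difference fitted with cohort and plate was 0.06 ± 0.47 (SE). Only plates G, I and K held females of both treatments. Plate F held only control females, with 26.8 normalised reads in cohort 1 and 76.7 in cohort 2. These enter that difference through the cohort term. The control and MeHg females had 58.4 and 50.1 normalised reads in plate G, and 48.6 and 68.4 in plate I. In plate K the control had 155.6 and the MeHg females 195.1 and 183.2. The male difference of this gene was 0.93 ± 0.36 (SE). In the fit of all birds the MeHg differences of males and females differed by 0.47 ± 0.63 (SE; limma, adjusted p above 0.99). Both single-sex differences were smaller than the 1.22 fitted in all birds. The same held for ENSTGUG00000025388, with 0.39 ± 0.34 (SE) in females, 0.65 ± 0.23 (SE) in males and 0.72 in all birds. For ENSTGUG00000001164 and ENSTGUG00000004612 the difference in all birds lay between those of the sexes.

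Nor did any gene pass the test of MeHg by cohort (limma, edgeR also 0). The lowest adjusted p was 0.253 with limma, and 836 genes or 6.26% lay at an unadjusted p under 0.05. Each cohort alone gave 0 genes with limma and with edgeR, with 1014 (7.59%) in cohort 1 and 792 (5.93%) in cohort 2 at an unadjusted p under 0.05. The differences of the cohorts, which share no bird, had a correlation of 0.13 across genes, and 55.2% had the same sign. The cohort values of the 4 genes are a description, since the genes were named from the birds of both cohorts together. ENSTGUG00000004612 differed by -2.74 ± 0.55 (SE) in cohort 1 and -1.58 ± 0.55 (SE) in cohort 2. ENSTGUG00000001164 differed by -0.64 ± 0.22 (SE) and -1.01 ± 0.28 (SE). The higher genes differed by 0.95 ± 0.41 (SE) and 1.09 ± 0.40 (SE) for ENSTGUG00000020696, and by 0.69 ± 0.23 (SE) and 0.53 ± 0.23 (SE) for ENSTGUG00000025388.

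The 4 genes were named from day 90 birds, and the same measure was tested in the birds of day 6, 18 and 35, age by age. Of the 24 title codes at day 90, 23 also occur at other ages, in 87.3% of the libraries of those ages, so the ages do not hold unrelated sets of codes. ENSTGUG00000020696 rose at day 18 by 1.03 ± 0.25 (SE) on the log2 scale (limma, adjusted p = 0.0499). Its difference was 1.29 ± 0.28 (SE) at day 6 and 1.01 ± 0.25 (SE) at day 35 (limma, adjusted p = 0.311 and 0.101). Its unadjusted limma p was 0.000135 at day 6, 0.000156 at day 18 and 0.000238 at day 35. The adjusted p also depends on the other genes tested at each age. Over these ages 26 of 61 MeHg birds lay above the highest of all 78 controls of the series, which had 155.6 normalised reads, and the other 35 did not. ENSTGUG00000001164 fell at day 18 by 0.83 ± 0.19 (SE; limma, adjusted p = 0.0433), and differed by -0.36 ± 0.22 (SE) at day 6 and -0.68 ± 0.16 (SE) at day 35 (limma, adjusted p = 1.0 and 0.101). At day 18, 47 genes were called in all (0.365%), with 1 at day 6 (0.00795%) and 7 at day 35 (0.0535%).

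ENSTGUG00000004612 had another course. In day 6 birds it was near 0 in both groups, with at most 2.82 normalised reads in controls and 2.49 with MeHg. Control medians were 0, 1.22 and 4.71 at day 6, 18 and 35, before 11.0 at day 90, and MeHg medians were 0, 1.09, 0.975 and 1.19. The MeHg difference was -0.12 ± 0.35 (SE) at day 6, -0.37 ± 0.41 (SE) at day 18 and -1.41 ± 0.48 (SE) at day 35 (limma, adjusted p = 1.0, 0.679 and 0.279). The difference of ENSTGUG00000025388 was 0.93 ± 0.53 (SE) at day 6 and 0.60 ± 0.19 (SE) at day 35 (limma, adjusted p = 1.0 and 0.263), while at day 18 its difference was -0.01 ± 0.20 (SE; limma, adjusted p = 0.989).

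**Figure D4:**
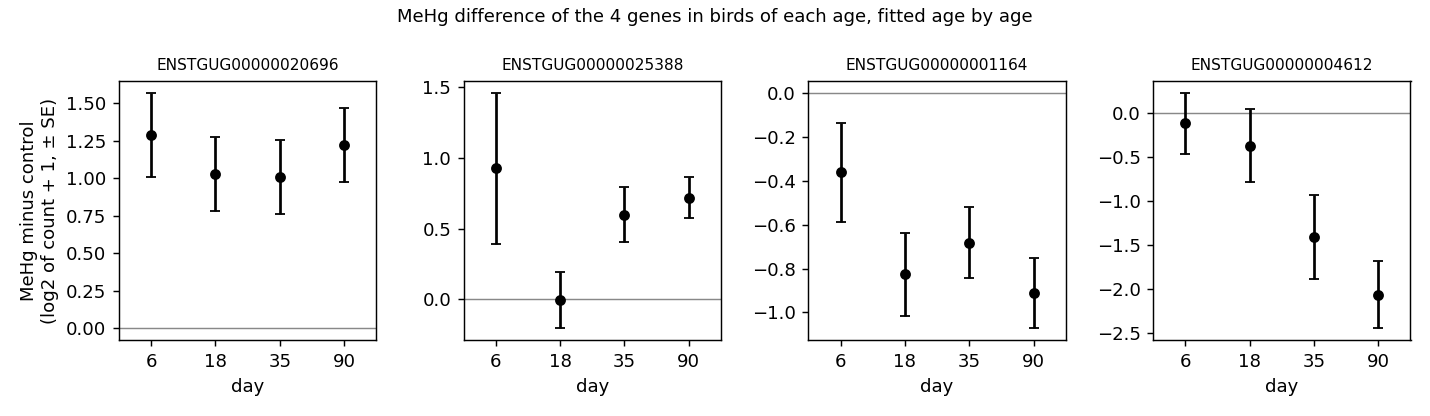
Fitted MeHg minus control difference (y axis, log2 of normalised count + 1, bars ± SE) of the 4 genes in birds of day 6, 18, 35 and 90 (x axis), each age fitted alone. The difference of ENSTGUG00000020696 lies between 1.01 and 1.29 at all 4 ages, and that of ENSTGUG00000004612 goes from -0.12 at day 6 to -2.07 at day 90.

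Whether any MeHg difference was particular to day 90 was tested against the mean of the other ages. No gene passed (limma, edgeR also 0). The lowest adjusted p was 0.682 with limma, and 962 of 14030 genes or 6.86% lay at an unadjusted p under 0.05. ENSTGUG00000004612 differed from the mean of the other ages by -1.44 ± 0.47 (SE; limma, unadjusted p = 0.00279, adjusted p = 0.696). The leading genes of day 90 as a group leaned the same way at other ages. Of the libraries of those ages, 87.3% carry title codes of day 90 birds, and each code belongs to 1 treatment. Genes are not independent of each other either, so the shares below are a description. Of the 100 genes with the smallest p at day 90, those that could be tested had the day 90 direction in 81 of 92 at day 6 (88%), 71 of 96 at day 18 (74%) and 86 of 96 at day 35 (89.6%). Over all genes tested at those ages the shares were 61.5%, 51.3% and 60.1%. The median difference of the listed genes in the day 90 direction was 0.19, 0.17 and 0.25 on the log2 scale, against 0.03, 0.00 and 0.03 over all genes. An unadjusted p under 0.05 in the day 90 direction was found for 18 of the listed genes at day 6 (19.6%), 31 at day 18 (32.3%) and 37 at day 35 (38.5%), and in the other direction for 0, 2 and 0. Over all genes tested at those ages, 3.39%, 8.99% and 7.61% had such a p in the day 90 direction, and 0.691%, 7.14% and 2.15% in the other.

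Within title codes ENSTGUG00000020696 took both low and high values. The gap seen among MeHg birds of day 90 was filled by birds of other ages, so the highest control serves only as a line for counting. Over all ages 40 of 83 MeHg birds lay above the highest control, in 13 of the 16 MeHg codes. Of these codes, 10 also held birds within the control range. Code Hg13, the largest with 15 birds, ranged from 42.6 to 540 normalised reads, with 7 birds above the highest control. Code Hg7 ranged from 68.4 to 585 and code Hg8 from 60.1 to 342. Code Hg17 had 6 of 8 birds above, and its day 90 birds lay close together at 272 to 300. In code C19, the largest control code with 14 birds, values ran from 30.4 to 114.3.

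**Figure D5:**
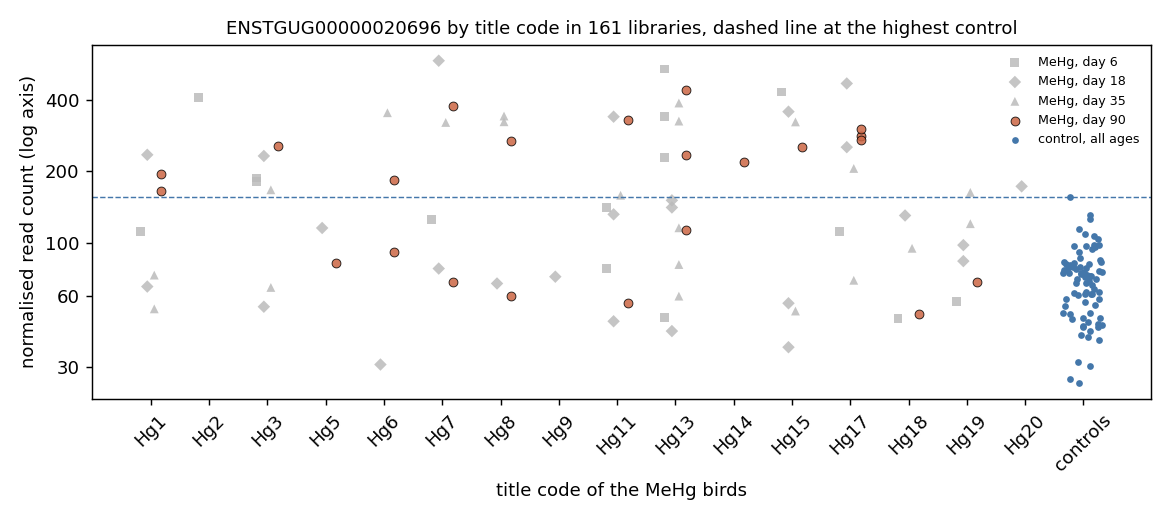
Normalised read count of ENSTGUG00000020696 (y axis, log scale) in 78 control and 83 MeHg libraries, with MeHg birds placed by title code (x axis), day 90 birds in orange and other ages in grey, and all controls in blue at the right. The dashed line marks the highest control at 155.6 normalised reads, and 10 of 16 MeHg codes have birds on both sides of it.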

How the data were processed

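The authors deposited 1 signal value per gene and library, a read count scaled by a factor of that library. Tools named in the submitters' processing notes are Subread, its featureCounts, R 4.0.2 and DESeq2 1.30.1. No source used here gives the genome build or annotation, or whether counting used strand, and overlapping or near-identical genes may share reads. With each library's lowest value above 0 taken as 1 read, 100% of values were whole (relative tolerance 1e-06), and the factors (0.574 to 1.75) match those DESeq2 computes from these reads.

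Groups came from the labels. Of 45 day 90 libraries in the labels, 43 have a column and 3 were left out. A gene was tested where 10 or more libraries reached a value of 10, on log2(value + 1) with limma 3.58.1 (R 4.3.3; trend, robust), with 28 residual degrees of freedom. The design set limma for normalised values and edgeR for raw counts. With normalised values deposited, edgeR 4.0.16, DESeq2 1.42.0 and voom on recovered reads were alternatives. Fits of all ages kept genes reaching 10 in at least 15 libraries. Female, male and cohort fits used the genes of the main test. Day 6, 18 and 35 fits used those of them that reached 10 in 10 libraries of that age, plus the 4 named genes.

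The rule for named genes, where no symbols exist, was the 2 with the smallest p in each direction. The gene lists and markers could not be used, for lack of symbols. The members, the libraries left out and the tests were chosen with earlier results of these data known. No pair of libraries within a group came near sampling noise (lowest chi-square per gene 14.1). The fit was tested on simulated counts of 13268 genes, where 6 of 144 calls were unchanged genes. Intervals are for the fitted mean difference, from its SE and the 28 residual degrees of freedom, and rest on the spread between libraries.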

Additional observations from a re-analysis of the deposited data

Results flagged for a closer look

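In cohort 2 controls of day 90 (n = 8), ENSTGUG00000025388 had 364 normalised reads in control replicate 3, far from the other 7 libraries. In the same group, ENSTGUG00000004612 had 27.3 normalised reads in control replicate 2, where the other libraries had 0.987 to 10.95. That distance is on the scale of normalised reads, not on the log2 scale of the test. Chance alone marks about 1 in 20 such groups. Without control replicate 2, ENSTGUG00000004612 no longer reached 10 normalised reads in 10 libraries and was not tested.

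Control replicate 16, one of the libraries left out, had 198 normalised reads of ENSTGUG00000001164, above the highest of the 19 controls analysed (163.8).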

How the results depend on the processing

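For MeHg against control at day 90, 2 genes were called with limma, and 2 to 3 also with a pseudocount of 0.5, no filter, TMM scaling or no covariates. Main and alternative calls are given as shares of the genes tested, 0.015% as reported. With a pseudocount of 5 the share was 0.0449% (6 genes), with a filter on a mean of 50, which leaves out ENSTGUG00000004612, 0.00983% (1 gene), with edgeR 0.105% (14), with DESeq2 0.839% (63 higher and 49 lower), with voom 0.547% (73), with all ages in 1 fit 0.128% (18) and with the 3 libraries kept 0.0298% (4). It was 0 with extraction batch in place of plate, 0 on the 31 RIN-labelled libraries, 0 with RIN as a further covariate there and 0 with a random effect of title code (correlation 0.0823). On the RIN-labelled libraries ENSTGUG00000004612 did not pass the filter and was not tested. ENSTGUG00000001164 had a limma adjusted p of 0.102 there, and 0.0667 with RIN as a covariate. The cause of the changes between settings was not tested. With single libraries left out the share ran from 0 to 0.15%, or 0 to 20 genes. It was 20 without control replicate 12, 18 without MeHg replicate 23, 11 without MeHg replicate 15, 10 without MeHg replicate 17, 8 without control replicate 21, 7 without control replicate 19, 5 without control replicate 14, and 4 without control replicate 3, MeHg replicate 5 or MeHg replicate 22. It was 1 without control replicate 8 or MeHg replicate 2, 18, 19 or 20. It was 0 without control replicate 5, 6, 7, 13, 18 or 20 or MeHg replicate 1, 4, 8 or 16. Control replicate 6 and MeHg replicate 4 were the only libraries of plate C in the fit. With plate as a covariate, leaving out either gave the same estimates, such as -0.88 for ENSTGUG00000001164, so these fits are not separate.

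ENSTGUG00000001164 passed in 30 of these 40 fits, at log2 differences of -0.98 to -0.84 (limma adjusted p = 0.00405 to 0.0854), and in 11 of 15 alternatives. ENSTGUG00000004612 passed in 21 of 40 (-2.23 to -1.90). In 10 of the others 1 of the controls that brought it past the filter was missing, and in 9 it missed the threshold: without control replicate 5 or MeHg replicate 1, 2, 4, 8, 16, 18, 19 or 20. ENSTGUG00000020696 passed in 7 of 40 (1.06 to 1.29) and ENSTGUG00000025388 in 9 of 40 (0.65 to 0.78). Of the 15 alternatives, ENSTGUG00000004612 passed in 10, ENSTGUG00000020696 in 7 and ENSTGUG00000025388 in 4. None of the 4 changed sign in any of these fits.

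In males edgeR called 2 genes (0.015%) in place of 1. MeHg by cohort gave 0 to 0.0075% of genes with single libraries left out, 1 gene without control replicate 1, and MeHg by sex gave 0 throughout. No paired analysis was possible because replicate numbers only name the libraries in accession order. Depth limits ENSTGUG00000004612 most, with at most 8 reads in any MeHg bird.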

Other observations

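The spread between birds was of like size in both groups over the genes tested. After sex, cohort and plate were fitted, the median SD per gene was 0.301 on the log2 scale in MeHg birds and 0.304 in controls, and 49.2% of 13355 genes had the larger SD in MeHg birds.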
